A study of Mus musculus with 7 samples.

Results

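The enzymes that bring pyruvate into the mitochondrion's tricarboxylic acid (TCA) cycle, turn the cycle, and exchange its intermediates with amino acids were examined in nucleus pulposus of mice without the lactate exporter MCT4. The members were chosen by name: 32 genes of pyruvate entry, the cycle, the malic enzymes, glutamate dehydrogenase and the transaminases. A gene was measured where the platform annotation used here paired an array feature with its symbol, which held for 31 of the 32, each with 1 feature, out of 19505 genes measured in all. Glud1, glutamate dehydrogenase, had no such feature and was not analysed here.

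The samples were 3 MCT4KO animals and 4 wild-type (WT) animals, with 1 Affymetrix array per animal. MCT4KO animals lacked the transporter, were 14 months old per the descriptions, and were named C57BL/6 in the strain field and C57Bl/6N in the series design. WT animals were 13 months old and named C57BL/6. The groups thus differ by age too, and its part and that of the genotype cannot be told apart. Per the labels both came as littermates of heterozygous parents on a C57Bl/6N background, and tissue from the lumbar and caudal discs of 1 animal was pooled into 1 sample. The labels used here do not state whether they were male or female.

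The nucleus pulposus is the gelatinous core of the intervertebral disc, whose cells live far from blood vessels and are known for making most of their ATP by glycolysis and releasing lactate. Pyruvate that is not reduced to lactate is oxidised to acetyl-CoA by the pyruvate dehydrogenase complex or carboxylated to oxaloacetate. The cycle then oxidises acetyl-CoA while feeding electrons to the respiratory chain, and malic enzymes, glutamate dehydrogenase and transaminases add or remove its carbon skeletons.

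Values are the authors' log2 expression values, and a difference of 1 is a doubling on that deposited scale. Levels of different genes are not compared, since each feature has its own response. Negative control features gave the background, with array medians of 5.91 to 6.08, and array medians over all genes ran from 6.46 to 6.51. Slc16a3, which encodes MCT4, read 5.02, 4.98 and 4.47 in MCT4KO 1 to 3 and 13.55, 13.35, 13.61 and 13.40 in WT 1 to 4 (limma adjusted p = 6.7e-09). A two-sided exact permutation test over the 35 splits of the animals gave p = 0.0286, which this design cannot go below. The 9 measured nucleus pulposus markers, among them the keratins Krt8, Krt18 and Krt19, averaged 15.04 to 15.23 in MCT4KO animals and 14.74 to 15.13 in WT animals, all above background. Of the 9, Col2a1 and Cd24a were higher in MCT4KO with no overlap between the groups, and the rest overlapped. Col2a1 read 10.08, 9.22 and 8.85 in MCT4KO 1 to 3 and 7.58 to 8.30 in WT animals. Its change was 1.32 (limma adjusted p = 0.088). Cd24a read 17.49 to 17.70 in MCT4KO and 17.43 to 17.46 in WT animals. In tissue pooled from many cells, fewer cells of a type and less RNA per cell cannot be told apart.

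None of the 31 members passed limma's test over all genes at an adjusted p under 0.05, where 0.59% of all 19505 genes did (115 genes, 92 lower and 23 higher in MCT4KO, or 53 lower and 26 higher after quantile normalization). At an unadjusted p under 0.05, 5 members were lower, Gpt2, Pcx, Ogdh, Idh1 and Aco1, which is 16.1% of the members beside 6.9% of all genes. One was higher, Me1, which is 3.23% of the members beside 5.76% of all genes. The median change over the members was -0.02 on the log2 scale, beside 0.02 over all genes, and its sign turned with quantile normalization, to 0.06. Of all genes, 7633 read at background in both groups, as did 2 members. A filter on low values kept 10787 genes, where 10.5% met the same unadjusted cutoff downward and 4.73% upward. Of the 29 members kept, 5 met it downward and 1 upward. After this filter the median change was -0.02 over the members and -0.05 over the genes kept. Of the 31 members, 21 differed between the groups by less than 0.25 on the log2 scale, as did 13181 of all 19505 genes, a similar share. A difference of more than 1 was seen in 1 member and in 252 of all genes. That member was Gpt2, which read at background in MCT4KO.

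The numbers of such members moved with single animals. The 5 lower members became 3 without MCT4KO 1 (Gpt2, Idh1 and Pcx) and 3 without MCT4KO 3 or without WT 1 (Gpt2, Ogdh and Pcx each time). The 1 higher member became 0 without MCT4KO 2, without MCT4KO 3 or without WT 1, and 2 without MCT4KO 1, when Me3 joined Me1. Without WT 1 and WT 2 together, 2 were lower, Gpt2 and Pdha1, and 0 higher. Gpt2 was the one member below an unadjusted p of 0.05 in all 16 alternatives run. In 5 members every MCT4KO animal lay below every WT animal (Gpt2, Pcx, Idh1, Aco1 and Got2), as did 6.37% of all genes, and in 1, Me1, every MCT4KO animal lay above, as did 5.66% of all genes. The precision set what could be seen: the standard error of a member's change ran from 0.128 to 0.356, with a median of 0.147.

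**Figure D1:**
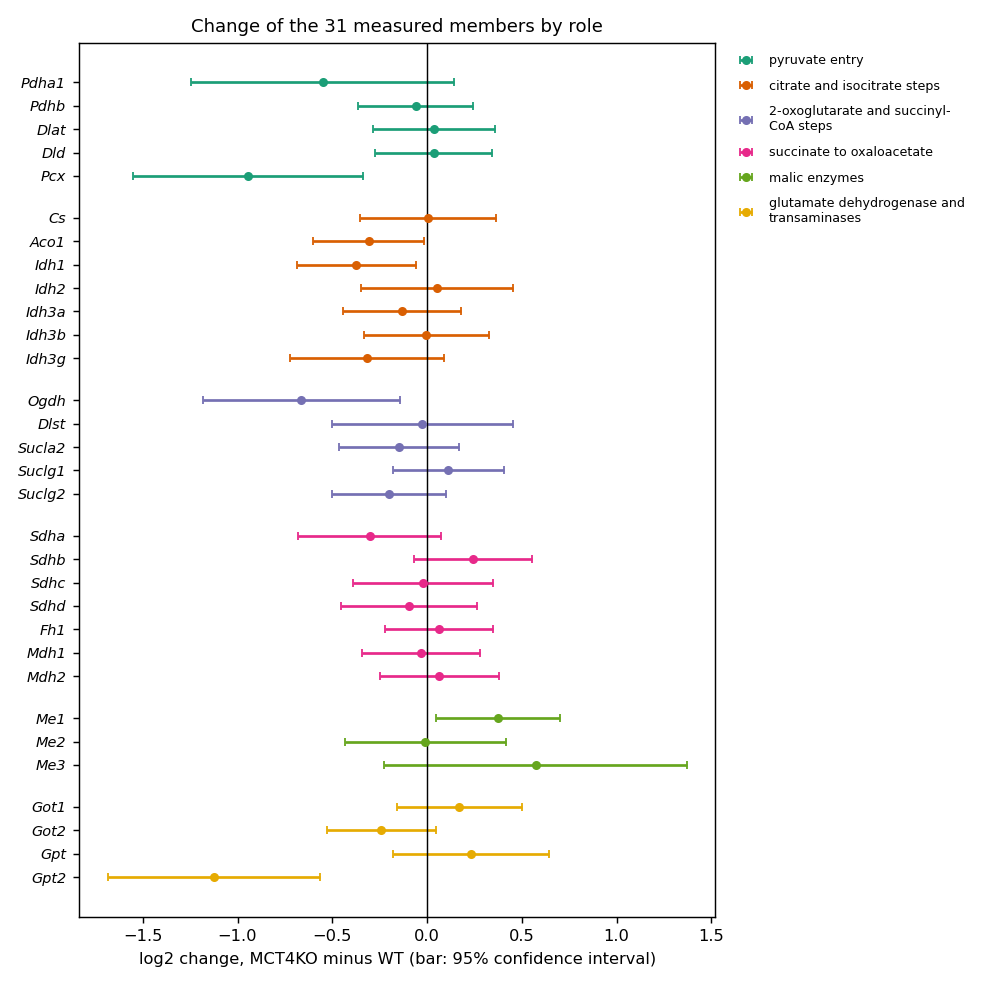
Log2 change of each of the 31 measured members, MCT4KO minus WT (n = 3 and 4 animals), in rows grouped by role, with bars for the 95% confidence interval from limma. Most points lie near 0, with Gpt2 (-1.12), Pcx (-0.94) and Ogdh (-0.66) farthest to the left among the intervals that leave out 0, and Me1 (0.38) to the right.

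Pyruvate entry had 1 member apart from the rest, Pcx, pyruvate carboxylase, which makes oxaloacetate from pyruvate. Pcx read 7.70, 9.05 and 8.48 in MCT4KO 1 to 3, against 9.46, 9.49, 9.11 and 9.35 in WT 1 to 4. All 3 MCT4KO animals were below all 4 WT animals, by a wide margin in MCT4KO 1 and by a small one in MCT4KO 2. The change was -0.94 ± 0.271 (SE), or 0.520 of the WT level, with limma adjusted p = 0.20 over all genes, and it was -0.59 without MCT4KO 1.

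The pyruvate dehydrogenase complex itself, which makes acetyl-CoA, showed no member past the test. Pdha1, the catalytic E1 alpha subunit and the site of inhibitory phosphorylation, read 10.98, 11.84 and 11.64 in MCT4KO 1 to 3, against 11.76, 11.38, 12.62 and 12.38 in WT 1 to 4. The groups overlapped, with MCT4KO 1 lowest and WT 2 next lowest. Its change of -0.55 ± 0.310 (SE; adjusted p = 0.49) had a 95% confidence interval of -1.24 to 0.14, so a change of this gene in either direction was not resolved, and it was -1.01 without WT 1 and WT 2 and -0.29 without MCT4KO 1. Pdhb, the E1 beta subunit, had a mean of 12.22 ± 0.0793 in MCT4KO and 12.28 ± 0.158 in WT (SD, n = 3 and 4). Dlat, the acetyltransferase E2, and Dld, the dehydrogenase E3 that other complexes share, changed by 0.04 ± 0.143 and 0.03 ± 0.137 (SE). These 3 subunits had intervals that stayed within -0.36 to 0.36. Whether Pdha1 changed differently from its partners was not tested.

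Of the 7 genes of the citrate and isocitrate steps, the 2 with an unadjusted p under 0.05 encode cytosolic enzymes. Idh1, the cytosolic NADP-dependent isocitrate dehydrogenase, read 10.15, 9.88 and 9.83 in MCT4KO 1 to 3, against 10.50, 10.35, 10.23 and 10.22 in WT 1 to 4, with no overlap between the groups. Its change was -0.37 ± 0.140 (SE; limma adjusted p = 0.32). Aco1, the cytosolic aconitase that binds iron-responsive RNA elements when it lacks its iron-sulfur cluster, read 10.54, 10.82 and 10.57 in MCT4KO 1 to 3, against 10.99, 11.03, 10.88 and 10.91 in WT 1 to 4. The groups were again separate, with MCT4KO 2 only slightly below the lowest WT animal. Its change was -0.31 ± 0.130 (SE; limma adjusted p = 0.37). The unadjusted limma p of Aco1 rose above 0.05 in 8 of 16 alternatives, and that of Idh1 in 5 of 16.

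The mitochondrial enzymes of these steps overlapped between the groups. The activity of citrate synthase, often read as a measure of mitochondrial mass, was not measured by these arrays. Its gene, Cs, had a mean of 11.81 ± 0.273 in MCT4KO and 11.80 ± 0.138 in WT (SD, n = 3 and 4). The 95% confidence interval of its change was -0.35 to 0.36, which leaves out a doubling or a halving on the deposited scale. Idh2, the mitochondrial NADP-dependent isocitrate dehydrogenase, read 12.32, 12.89 and 12.85 in MCT4KO 1 to 3, against 12.70, 12.79, 12.71 and 12.36 in WT 1 to 4. Its change was 0.05 ± 0.179 (SE). Of the subunits of NAD-dependent isocitrate dehydrogenase, a rate-setting enzyme of the cycle, the catalytic Idh3a changed by -0.13 ± 0.139, Idh3b by -0.0028 ± 0.147 and Idh3g by -0.32 ± 0.182 (SE), and adjusted p ran from 0.49 to 0.995. Without MCT4KO 1 the changes were -0.050 for Idh3a and -0.15 for Idh3g, and without MCT4KO 2 that of Idh3a was -0.25.

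The next steps oxidise 2-oxoglutarate and form ATP or GTP from succinyl-CoA. Ogdh, the E1 subunit of the oxoglutarate dehydrogenase complex, read 11.90, 12.88 and 12.36 in MCT4KO 1 to 3, against 13.42, 12.97, 12.92 and 12.85 in WT 1 to 4. MCT4KO 2 lay within the WT range, while MCT4KO 1 and MCT4KO 3 lay below it. The change was -0.66 ± 0.233 (SE), or 0.631 of the WT level, with limma adjusted p = 0.29, and it was -0.42 without MCT4KO 1. Dlst, the succinyltransferase E2 of the same complex, changed by -0.02 ± 0.214 (SE), and its widest spread was in WT animals, from 9.20 in WT 1 to 10.10 in WT 4. Whether Ogdh changed differently from Dlst was not tested.

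Succinyl-CoA ligase pairs a common alpha subunit, Suclg1, with an ATP-forming beta subunit, Sucla2, or a GTP-forming one, Suclg2. Suclg1 changed by 0.11 ± 0.131 (SE). Suclg2 read 10.10, 9.93 and 10.24 in MCT4KO 1 to 3, against 10.45, 10.27, 10.21 and 10.24 in WT 1 to 4, and its change was -0.20 ± 0.135 (SE; adjusted p = 0.56). Sucla2 read 4.45, 4.51 and 4.82 in MCT4KO 1 to 3, against 4.73, 4.75, 4.87 and 4.62 in WT 1 to 4. On all 7 arrays it stayed under the control median, so that this feature gives no size of change for Sucla2.

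From succinate to oxaloacetate, 0 of 7 members had an unadjusted p under 0.05. Succinate dehydrogenase, which is also complex II of the respiratory chain, had subunits on both sides of 0. Its flavoprotein Sdha changed by -0.30 ± 0.169 and its iron-sulfur subunit Sdhb by 0.24 ± 0.139 (SE; adjusted p = 0.48 and 0.495), while the membrane anchors Sdhc and Sdhd changed by -0.02 ± 0.164 and -0.10 ± 0.160. Without MCT4KO 1 the changes were -0.14 for Sdha and 0.16 for Sdhb. Sdhb read 11.80, 11.46 and 11.64 in MCT4KO 1 to 3, against 11.46, 11.46, 11.44 and 11.21 in WT 1 to 4. Fh1, fumarase, had a mean of 9.71 ± 0.106 in MCT4KO and 9.64 ± 0.1003 in WT (SD, n = 3 and 4).

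Neither malate dehydrogenase passed the test. Mdh1, the cytosolic enzyme of the malate-aspartate shuttle, read 13.51, 13.57 and 13.50 in MCT4KO 1 to 3, against 13.76, 13.67, 13.44 and 13.37 in WT 1 to 4. Mdh2, the mitochondrial enzyme, read 11.88, 12.13 and 12.26 in MCT4KO 1 to 3, against 12.08, 12.14, 11.90 and 12.00 in WT 1 to 4. In both genes the groups overlapped, and the 95% confidence intervals of the changes were -0.34 to 0.28 for Mdh1 and -0.25 to 0.38 for Mdh2.

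The malic enzymes, which release pyruvate from malate, held the 1 member that was higher. Me1, the cytosolic NADP-dependent enzyme known for supplying NADPH to lipid synthesis, read 14.48, 14.81 and 14.88 in MCT4KO 1 to 3, against 14.16, 14.39, 14.46 and 14.38 in WT 1 to 4. The lowest MCT4KO animal lay just above the highest WT animal. The change was 0.38 ± 0.147 (SE), or 1.30 times the WT level, with limma adjusted p = 0.33. Me3, a mitochondrial NADP-dependent enzyme, read 7.37, 8.72 and 8.50 in MCT4KO 1 to 3, against 8.13, 6.98, 7.97 and 7.40 in WT 1 to 4. It varied widely in both groups, and its change was 0.57 ± 0.356 (SE; adjusted p = 0.53), with values of 0.98 without MCT4KO 1, 0.31 without MCT4KO 2 and 0.36 without WT 2. Me2, a mitochondrial enzyme that uses NAD, read 7.14, 7.85 and 7.89 in MCT4KO 1 to 3, against 7.52, 7.68, 7.72 and 7.62 in WT 1 to 4. Its 3 MCT4KO values lay on both sides of the narrow WT range, with a mean change of -0.01 ± 0.191 (SE).

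Among the transaminases, Gpt2 had the lowest p of the 31 members, from readings that were partly at background. Gpt2, the mitochondrial alanine transaminase, makes alanine and 2-oxoglutarate from pyruvate and glutamate. It read 5.30, 5.67 and 5.24 in MCT4KO 1 to 3, against 6.88, 5.82, 6.81 and 6.61 in WT 1 to 4. Every MCT4KO animal lay below its array's control median, as did WT 2, while WT 1, WT 3 and WT 4 lay above theirs. With the MCT4KO values set to the control medians, their mean was 1.46-fold lower than the WT mean. This figure compares means only and carries no sampling error. Leaving out 1 animal at a time moved it between 1.34 and 1.72. The change as measured was -1.12 ± 0.251 (SE; limma adjusted p = 0.098). With values under the control medians set to them it was -0.59 ± 0.209 (SE; limma adjusted p = 0.39), smaller than those of Pcx (-0.94) and Ogdh (-0.66). Without WT 2 it was -1.36 and passed the test over all genes (adjusted p = 0.033), and over the other alternatives the adjusted p ran from 0.078 to 0.39. WT 2 also had the highest mean of 10 neutrophil and myeloid marrow markers, 9.32, beside 4.764 to 5.105 in MCT4KO animals and 5.51 to 7.26 in the other WT animals. Of these markers, 6 were at background in MCT4KO only and 1 in both groups. The part of these cells in the Gpt2 values was not tested.

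The other transaminases did not pass the test. Gpt, the cytosolic alanine transaminase, read 4.24, 3.73 and 4.20 in MCT4KO 1 to 3, against 3.51, 4.11, 3.83 and 3.84 in WT 1 to 4, below the control median on all 7 arrays. Got2, the mitochondrial aspartate transaminase of the malate-aspartate shuttle, read 13.18, 13.39 and 13.15 in MCT4KO 1 to 3, against 13.57, 13.43, 13.51 and 13.41 in WT 1 to 4. The groups did not overlap, by a narrow margin, and the change was -0.24 ± 0.128 (SE; adjusted p = 0.47). Got1, its cytosolic partner, read 12.03, 12.00 and 12.16 in MCT4KO 1 to 3, against 11.74, 11.76, 11.91 and 12.18 in WT 1 to 4. WT 4 was the highest of all 7 animals for Got1, and the change was 0.17 ± 0.147 (SE; adjusted p = 0.66).

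**Figure D2:**
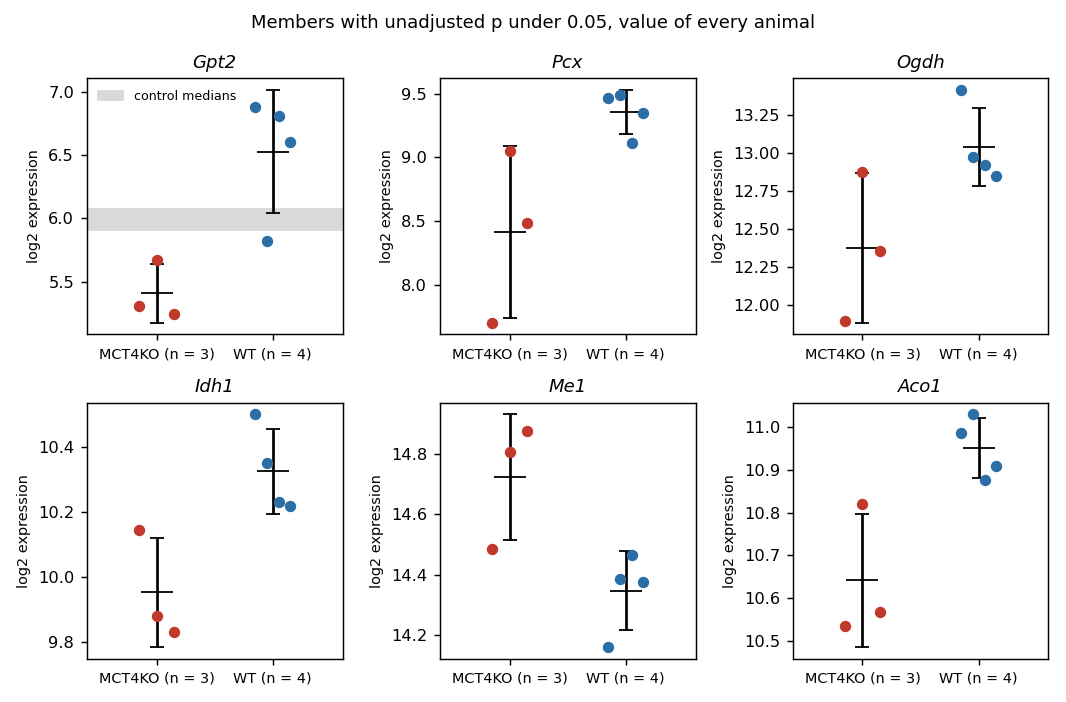
Log2 expression of the 6 members with an unadjusted p under 0.05, each point 1 animal (MCT4KO left, n = 3; WT right, n = 4), with the group mean and SD as line and bar; each panel has its own vertical range. In Gpt2 the MCT4KO points lie under the grey band of array control medians (5.91 to 6.08), and in Ogdh MCT4KO 2 (12.88) lies among the WT points.

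The promoters of the 2 lower members with the smallest p, Gpt2 and Pcx, and of the higher one, Me1, are shown so that their sequences can be set beside these opposite changes. Each window runs from 250 bases before to 50 bases after the most upstream RefSeq start of the gene, in build GRCm38.p6, 5′ to 3′ on the gene's strand. Capitals mark matches, on either strand, to 3 motifs: the hypoxia response element core ACGTG, the antioxidant response element TGACNNNGC, and the amino acid response element TGATGNAA. Gpt2 lies on the plus strand, at chr8:85492326-85492625. Pcx lies on the plus strand, at chr19:4510222-4510521. Me1 lies on the minus strand, at chr9:86695865-86696164.
Gpt2: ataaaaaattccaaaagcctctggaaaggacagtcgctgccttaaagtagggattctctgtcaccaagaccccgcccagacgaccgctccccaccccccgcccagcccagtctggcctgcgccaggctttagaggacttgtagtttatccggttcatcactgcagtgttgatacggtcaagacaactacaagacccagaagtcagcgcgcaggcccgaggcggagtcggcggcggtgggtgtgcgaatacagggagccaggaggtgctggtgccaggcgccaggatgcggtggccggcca
Pcx: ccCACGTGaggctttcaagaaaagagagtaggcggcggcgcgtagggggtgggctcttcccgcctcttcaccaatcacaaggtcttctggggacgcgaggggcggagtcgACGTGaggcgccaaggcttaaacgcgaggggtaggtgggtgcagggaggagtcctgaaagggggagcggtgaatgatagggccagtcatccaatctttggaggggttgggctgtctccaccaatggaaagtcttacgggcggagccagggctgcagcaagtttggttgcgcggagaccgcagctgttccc
Me1: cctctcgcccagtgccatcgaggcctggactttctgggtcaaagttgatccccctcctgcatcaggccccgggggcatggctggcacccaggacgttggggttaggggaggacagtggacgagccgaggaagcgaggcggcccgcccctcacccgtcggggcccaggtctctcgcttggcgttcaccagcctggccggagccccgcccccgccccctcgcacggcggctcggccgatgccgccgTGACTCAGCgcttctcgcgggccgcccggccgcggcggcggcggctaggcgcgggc

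The Gpt2 window held none of the 3 motifs. The Pcx window held the hypoxia core at 2 places, the first of which reads on both strands. The Me1 window held the antioxidant element, tgactcagc, starting 6 bases before the gene start. Windows were found for 27 of the 31 measured members. The hypoxia core was in 6 of them (22.2%), beside 19.6% of 27026 windows, 1 for each gene. The antioxidant element was also in 6 (22.2%), beside 12.4% of all windows, and the amino acid element in 2, Got1 and Me3 (7.41%), beside 4.06% of all. These are matches of letters, described without a test.

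Paired enzymes were then compared within each array, by subtracting 1 gene of a pair from the other, so that only the difference between their changes remains. Across 7 pairs, none passed an exact two-sided permutation test after adjustment over the pairs (lowest adjusted p = 0.20). With 35 splits and 7 pairs, 1 pair alone at the smallest possible p could not pass after this adjustment. The adjusted result thus does not show that no single pair changed. An unadjusted p under 0.05 was reached by 1 pair. That pair was Me2 minus Me1. Relative to the WT mean of this difference, MCT4KO 1 to 3 stood at -0.63, -0.25 and -0.27, against 0.07, 0.003, -0.03 and -0.04 in WT 1 to 4. All 3 MCT4KO animals lay below all 4 WT animals (change -0.38, exact permutation p = 0.0286, the smallest the design allows, adjusted p = 0.20).

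The other pairs overlapped between the groups. Got2 minus Got1 changed by -0.41 (exact permutation p = 0.086; adjusted p = 0.20), where WT 4 at -0.36 lay among the MCT4KO values of -0.44, -0.19 and -0.60. Idh2 minus Idh1 changed by 0.42 (exact permutation p = 0.17; adjusted p = 0.30), with MCT4KO 1 at -0.13 and MCT4KO 2 and 3 at 0.70 and 0.71. Mdh2 minus Mdh1 and Me3 minus Me1 changed by 0.10 and 0.20. Gpt2 minus Gpt changed by -1.36 (exact permutation p = 0.086; adjusted p = 0.20) and Suclg2 minus Sucla2 by -0.06. Gpt and Sucla2 read below background on all arrays, and Gpt2 did in all 3 MCT4KO animals, so these 2 differences rest in part on background readings. With values under the control medians set to them they were -0.58 for Gpt2 minus Gpt and -0.19 for Suclg2 minus Sucla2.

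**Figure D3:**
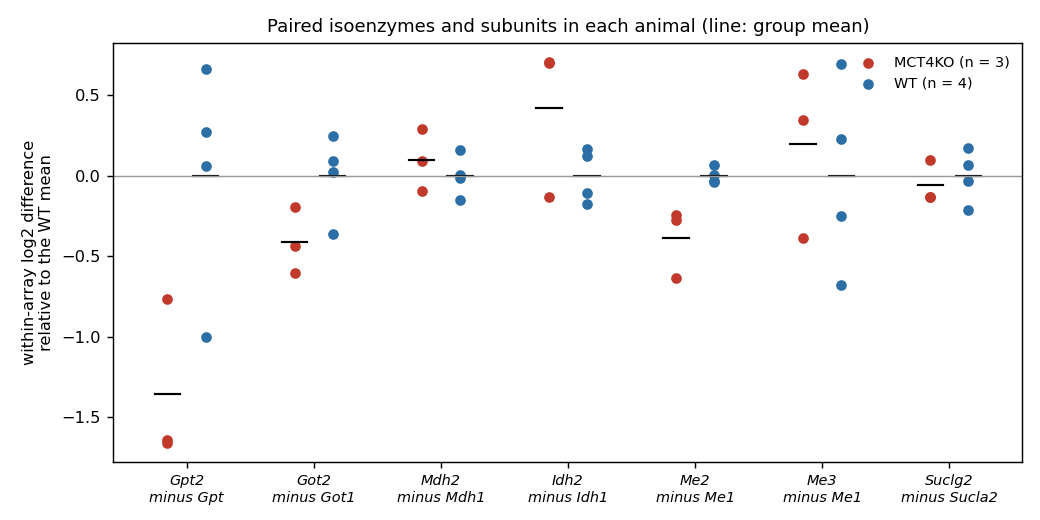
Within-array log2 difference between paired enzymes or subunits, relative to the WT mean of that difference (MCT4KO left of WT in each pair, n = 3 and 4 animals; black line, group mean). Me2 minus Me1 is the pair in which no MCT4KO point (-0.63 to -0.25) reaches the WT points (-0.04 to 0.07).

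Within MCT4KO, the animals differed in how the module read, and MCT4KO 1 stood apart. It had the lowest value of all 7 animals in 14 of 31 members (45.2%), beside 19.7% of all genes, and no other animal had the lowest value in more than 6. The median deviation of the members from their WT means was -0.23 in MCT4KO 1, against -0.03 and -0.05 in MCT4KO 2 and MCT4KO 3 and -0.08 to 0.05 in WT animals. Over all genes that deviation was 0.01 in MCT4KO 1. Both all-gene values include the 7633 genes at background in both groups, and values for the genes kept by the filter are not given here. In MCT4KO 1, Pcx (-1.65), Ogdh (-1.14), Pdha1 (-1.06) and Sdha (-0.63) lay farther below their WT means than in the other MCT4KO animals, while Me1, Sdhb and Got1 lay above theirs. Across the members the SD ran from 0.0382 to 0.722 in MCT4KO, with a median of 0.203, and from 0.0570 to 0.566 in WT, with a median of 0.158.

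Some marker genes of cartilage were high in that animal. The 6 end plate and hyaline cartilage markers averaged 8.67 in MCT4KO 1, against 7.47 and 6.55 in MCT4KO 2 and MCT4KO 3 and 7.31 to 7.83 in WT animals. Col10a1, the collagen of hypertrophic cartilage, read 12.11, 9.02 and 7.18 in MCT4KO 1 to 3 and 7.02 to 8.50 in WT animals, and Chad, chondroadherin, read 14.29, 9.93 and 8.56 in MCT4KO 1 to 3 and 10.54 to 13.26 in WT animals. Ucma went the other way, at 10.36, 10.81 and 9.51 in MCT4KO 1 to 3 and 10.88 to 11.61 in WT animals. Col9a1, close to the control medians, was also not high in MCT4KO 1. It read 5.97, 5.97 and 5.84 in MCT4KO 1 to 3 and 5.99 to 6.06 in WT animals. Matn1, which marks hyaline cartilage, and Matn3 read below background on all 7 arrays. Col2a1, from the nucleus pulposus list, read 10.08, 9.22 and 8.85 in MCT4KO 1 to 3 and 7.58 to 8.30 in WT animals. The 12 markers of skeletal muscle, a tissue rich in TCA cycle enzymes, averaged 6.30 in MCT4KO 1, 5.65 in MCT4KO 2 and 6.10 in MCT4KO 3. In WT animals they averaged 5.63 to 6.31, and 3 of the 12 were at background throughout. Of the rest, Ckm, Myl1, Tnnt3 and Tnni2 read highest in MCT4KO 1. Acta1, Myh1, Mylpf and Atp2a1 read highest in WT 3, and Mb in MCT4KO 3. Ckm read 7.50, 7.23 and 7.10 in MCT4KO 1 to 3 and 6.76 to 6.97 in WT animals. The 8 adipocyte markers averaged 5.76 to 5.96 in MCT4KO, highest in MCT4KO 1, and 5.49 to 5.8004 in WT. Adipoq, Plin1, Lep and Retn read below background on all arrays. Plin4 read 8.94, 8.49 and 9.34 in MCT4KO 1 to 3 and 7.88 to 8.34 in WT animals. In Pparg, Cidec and Fabp4 the groups overlapped. The part of these tissues in the members' values was not tested.

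**Figure D4:**
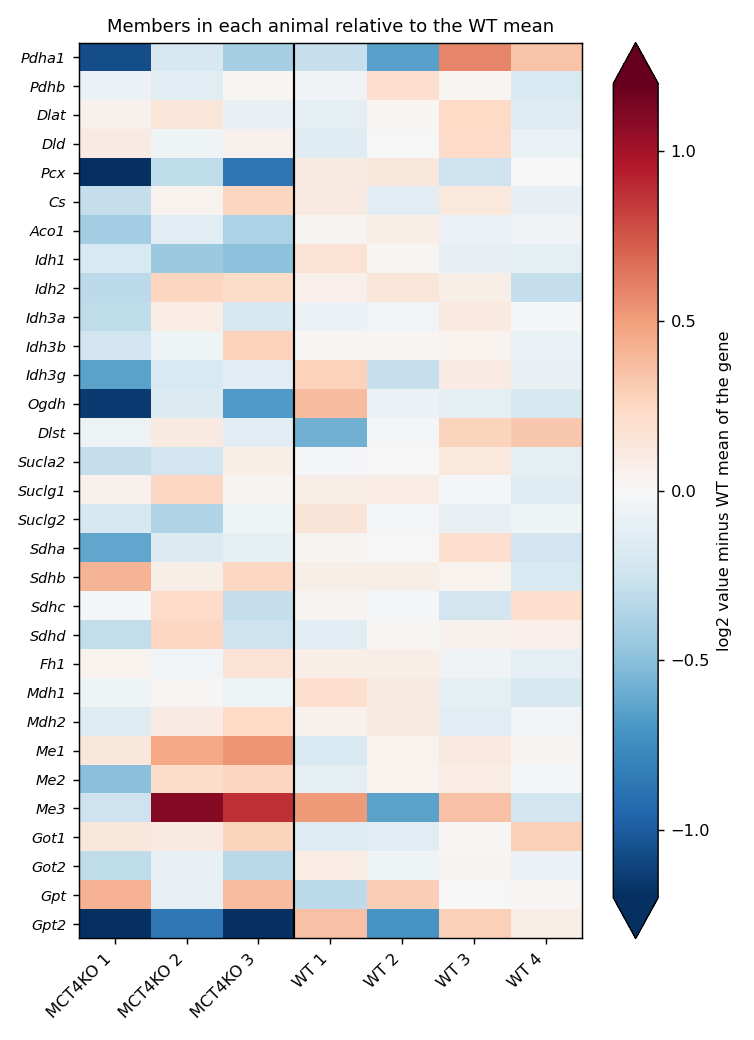
Deviation of each of the 31 members (rows) in each animal (columns, MCT4KO left of the black line, WT right) from the gene's WT mean, as a log2 difference from blue (lower) through white to red (higher), with colours saturating at the ends of the scale. The MCT4KO 1 column is mostly blue, with a median of -0.23. The rows of Pcx, Ogdh, Gpt2, Pdha1, Aco1, Idh1, Idh3g, Suclg2, Sdha and Got2 are below 0 in all 3 MCT4KO columns. Gpt2 is also low in WT 2 (-0.71).

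The pathway around these members was read from 45 further genes, of which 39 were measured. None passed the test over all genes (limma). Unadjusted p under 0.05 was reached by 3 that were lower (7.69%, beside 6.9% of all genes) and 2 that were higher (5.13%, beside 5.76% of all genes), shares near the background, and 9 of the 39 were at background in both groups. On the way in, Mpc1, a subunit of the mitochondrial pyruvate carrier, read 14.60, 14.67 and 14.98 in MCT4KO 1 to 3, against 14.42, 14.50, 14.34 and 14.15 in WT 1 to 4 (change 0.40 ± 0.149, SE; adjusted p = 0.32). Its groups did not overlap. Ldha, the lactate dehydrogenase subunit of glycolytic tissues, had a mean of 17.48 ± 0.0905 in MCT4KO and 17.32 ± 0.0759 in WT (SD, n = 3 and 4), and Ldhb, the subunit of oxidative tissues, 8.31 ± 0.448 in MCT4KO and 8.79 ± 0.294 in WT.

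None of the 4 kinases that switch off pyruvate dehydrogenase passed the test, and in all 4 the groups overlapped. Pdk4, the kinase induced by fasting and fatty acids, read 8.68, 8.52 and 9.12 in MCT4KO 1 to 3, against 9.25, 9.10, 9.84 and 10.36 in WT 1 to 4. MCT4KO 3 and WT 2 overlapped narrowly, and the change was -0.86 ± 0.294 (SE; limma adjusted p = 0.28), or -1.33 without WT 1 and WT 2. Pdk1, a target of the hypoxia-inducible factor HIF-1, had a mean of 13.68 ± 0.198 in MCT4KO and 13.47 ± 0.0388 in WT (SD, n = 3 and 4; adjusted p = 0.56). Pdk2 and Pdk3, 2 further isoforms, changed by -0.09 ± 0.236 and 0.19 ± 0.147 (SE; adjusted p = 0.90 and 0.61).

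Elsewhere among the further pathway genes, 3 more had non-overlapping groups, which makes 2 lower and 2 higher among the 39. That is 5.13% each way, beside 6.37% and 5.66% of all genes. Slc25a12, the aspartate-glutamate carrier of the malate-aspartate shuttle, read 11.28, 11.31 and 11.43 in MCT4KO 1 to 3, against 10.59, 10.76, 11.01 and 10.97 in WT 1 to 4 (change 0.51 ± 0.145, SE; limma adjusted p = 0.19). Acly, which splits exported citrate into acetyl-CoA and oxaloacetate for lipid synthesis, read 10.85, 10.68 and 10.37 in MCT4KO 1 to 3, against 11.51, 11.17, 11.20 and 11.18 in WT 1 to 4 (change -0.63 ± 0.159, SE; limma adjusted p = 0.14). Abat, the mitochondrial transaminase that breaks down GABA, read 11.80, 11.57 and 11.45 in MCT4KO 1 to 3, against 12.09, 11.95, 12.22 and 12.40 in WT 1 to 4 (change -0.56 ± 0.154, SE; limma adjusted p = 0.18).

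**Figure D5:**
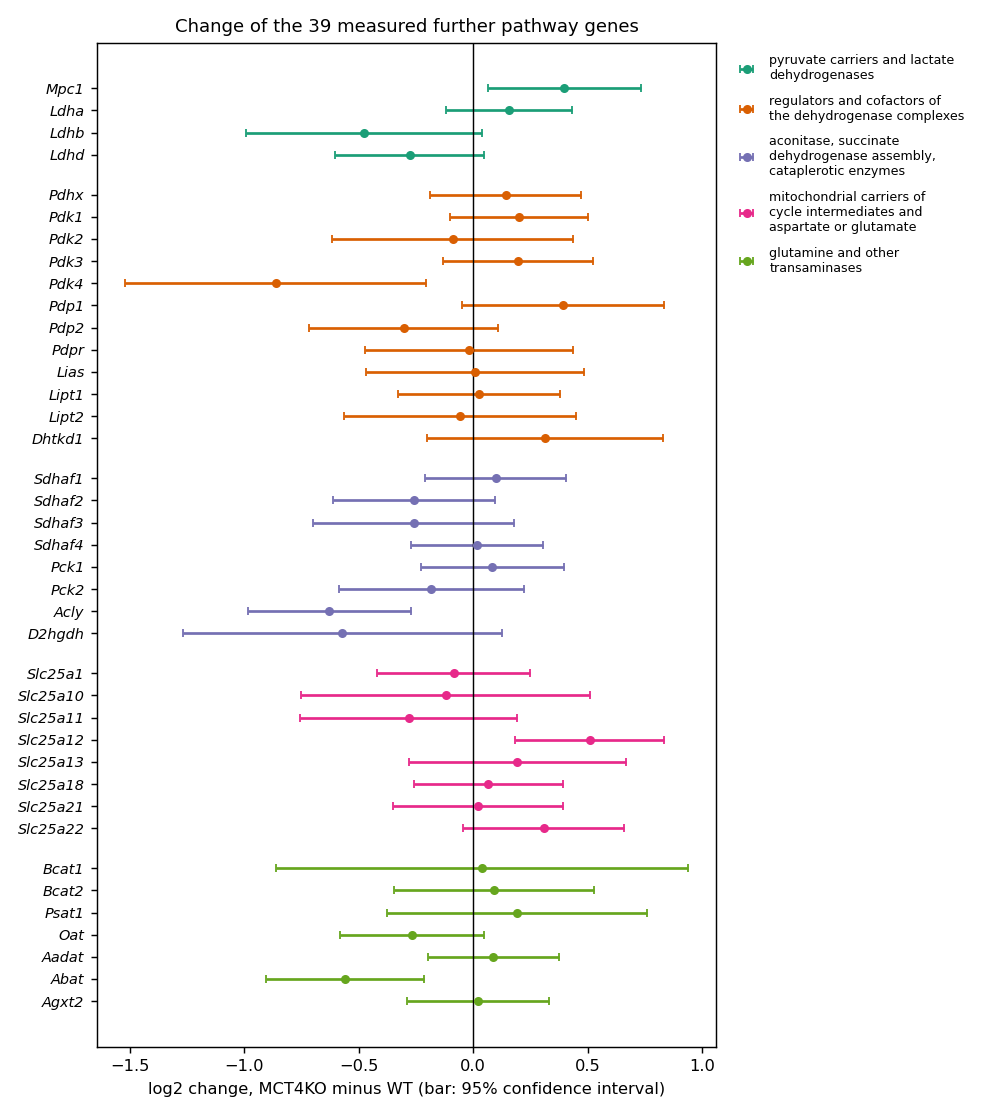
Log2 change of the 39 measured further pathway genes, MCT4KO minus WT (n = 3 and 4 animals), grouped by role, with bars for the 95% confidence interval from limma. The intervals of Slc25a12 (0.51) and Mpc1 (0.40) lie above 0 and those of Pdk4 (-0.86), Acly (-0.63) and Abat (-0.56) below it.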

How the data were processed

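RNA of nucleus pulposus from 7 mice was hybridised to Affymetrix whole-transcript arrays. The authors deposited 1 log2 value per feature, and the submitters' processing notes name Affymetrix Expression Console, version 1.4.1. How background, normalization and probe sets were handled there is not given in the sources used. That the scale is log2 is read from the values' range, and their maximum of 19.41 exceeds the log2 of a 16-bit scanner reading, so folds are on the deposited scale.

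Of 28846 features, 19572 carried a gene symbol, which gave 19505 genes, using the feature with the highest mean where a gene had several. The 5222 negative control features gave the background. A group was at background where every array read at or below its control median. The fit over all genes used limma 3.58.1 under R 4.3.3 (5 residual and 4.66 prior degrees of freedom), two-sided, with Benjamini-Hochberg adjustment over all genes. The 7 pair differences had exact permutation tests, adjusted over the pairs. The fit was tested on simulated data. Members, lists, pairs and the rule for naming genes (members and further pathway genes with unadjusted p under 0.05, the paired members, and 5 genes always named) were chosen with earlier results of these data known. The rule named a sixth, Mpc2, which was not analysed here, and Pdk2 and Pdk3 were added after their values were seen. Precision rests on the number of animals, since arrays hold no reads. Alternatives were quantile normalization, median centring, a filter on low values, averaged features, other priors, array weights, the replicate block, and leaving out animals. Leaving out WT 1 and WT 2 and raising values to the control medians were added after the data were seen.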

Additional observations from a re-analysis of the deposited data

Results flagged for a closer look

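Among 48 sets of 4 WT values examined, 2 had 1 animal far from the other 3, where chance alone gives about 1 in 20. Sdhb read 11.21 in WT 4, against 11.44 to 11.46 in the other WT animals. Acly read 11.51 in WT 1, against 11.17 to 11.198 in the other WT animals.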

How the results depend on the processing

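Over 16 alternatives, Gpt2 without WT 2 (adjusted p = 0.033) was the 1 case of a member passing the test over all genes. The number of genes called over all genes, 115, became 6 with the replicate block, 15 to 64 when single animals were left out, 16 without WT 1 and WT 2, and 26 when values under the control medians were set to them. Samples with the same replicate number correlated at -0.13, 0.02 and 0.05 in their deviations from the group means. Those with different numbers correlated at -0.12 to 0.12. Whether the numbers pair the animals was not tested. The members' median change was 0.064 after quantile normalization and ran from -0.10 to -0.0080 when single animals were left out. Members called ran from 0 to 1, members lower at an unadjusted p under 0.05 from 3 to 5, and members higher from 0 to 2 when single animals were left out. Quantile normalization gave 3 lower, and leaving out WT 1 and WT 2 gave 2 lower and 0 higher.

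Changes near 0 turned in sign, and the cause was not tested. After quantile normalization the changes were Dlst 0.090, Idh3b 0.089, Mdh1 0.0036, Me2 0.064, Pdhb 0.00065 and Sdhc 0.080, and Suclg2 minus Sucla2 was 0.13. With the replicate block they were Cs -0.0285, Dlat -0.0116, Dlst 0.085, Idh2 -0.042 and Sdhc 0.048. With array weights they were Idh3b 0.038 and Me2 0.053. Without WT 1 and WT 2 they were Cs -0.011, Dlat -0.0093, Dld -0.043, Idh3b 0.017, Mdh1 0.12 and Pdhb 0.020. With values raised to the control medians Gpt was -0.0079. When single animals were left out, the changes ran from -0.12 to 0.15 for Cs, -0.020 to 0.12 for Dlat, -0.014 to 0.11 for Dld, -0.22 to 0.085 for Dlst, -0.049 to 0.24 for Idh2 and -0.14 to 0.11 for Idh3b. They ran from -0.094 to 0.036 for Mdh1, -0.020 to 0.17 for Mdh2, -0.14 to 0.24 for Me2, -0.12 to 0.0071 for Pdhb, -0.15 to 0.11 for Sdhc and -0.27 to 0.0016 for Sdhd. The paired differences ran from -0.0017 to 0.19 for Mdh2 minus Mdh1, -0.029 to 0.49 for Me3 minus Me1 and -0.13 to 0.0014 for Suclg2 minus Sucla2. Of 39 genes followed, 26 kept their sign throughout. Sucla2 and Gpt were at background on all arrays, so their values bound nothing further.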
